A study of Mus musculus with 4 samples.

Results

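The AP-1, EGR and NR4A genes of the immediate early response were compared between hearts of wild-type mice and of mice lacking Klf9, a Krüppel-like zinc finger factor. The 10 genes were chosen by symbol (Fos, Fosb, Jun, Junb, Egr1, Egr2, Egr3, Nr4a1, Nr4a2 and Nr4a3), and all 10 were found among the 17485 genes of the deposited table. Total RNA of hearts had been sequenced in 4 libraries: wild-type replicates 1 and 2, and Klf9 KO replicates 1 and 2. All came from mice labelled male and 8 weeks old, with free access to food and drink. Beyond "WT" and "Klf9 KO", the labels name no allele, strain, treatment or batch. Whether the replicates of a group were separate animals is not stated. Every limma p-value below reflects the spread of these libraries alone, which may be technical.

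Immediate early genes are switched on within minutes of a stimulus, without new protein synthesis, through transcription factors that already sit on or near their promoters, chiefly SRF with its ternary complex partners and CREB. FOS and JUN proteins pair through leucine zippers to form AP-1, EGR proteins bind GC-rich sites through zinc fingers, and NR4A proteins are orphan nuclear receptors that act without a known hormone. In the heart this response is known to follow mechanical load, adrenergic stimulation and ischaemia, and the handling of tissue after death can induce it as well.

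The libraries were checked first. Klf9 stood at 74.9 and 58.8 in wild type and at 2.66 and 1.99 in the knockout, in the direction of the labels; the deleted part of the gene is not stated, and reads from outside it can remain. Knockout replicate 2 stood apart from its label of male: Kdm5d, a Y-linked gene, was at 0.01, the smallest step of the values, against 3.42 to 4.01 in the other 3 libraries. Esr1, the estrogen receptor alpha gene, was at 3326 and 2726 in wild type and at 0.09 and 0.03 in the knockout. Heart muscle markers were high in all 4 libraries, with Myl2 at 9221 to 14274 and Myh6 at 4788 to 8725. Values per library were recovered from the deposited ratios; their unit is not known, nor is the depth. Tested with limma on log2(value + 1), at a Benjamini-Hochberg adjusted p below 0.05, 27.7% of 12135 genes were higher in the knockout and 17.0% lower.

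Promoter sequences are shown because 9 of the 10 genes were higher in both knockout libraries than in both wild-type libraries, and Junb was not; 40.3% of all genes of the table were. RefSeq (GRCm38.p6) windows covering the 250 bases before the annotated start were held for 8 of the 10 genes. Windows for Egr1 and Egr3 were not used here. The 3 NR4A genes and Fos are printed as genes that were higher, and Junb as the gene whose groups overlapped. Not printed are Jun, Fosb and Egr2, which were higher too and whose match counts are given below. The printed windows thus do not stand for all the higher genes. Each runs 5′ to 3′ on the gene's own strand, with capitals marking TGACG, the core of the site that CREB is known to bind, or CGTCA, its form on the opposite strand.
Nr4a1 (chr15:101266596-101266845, plus strand): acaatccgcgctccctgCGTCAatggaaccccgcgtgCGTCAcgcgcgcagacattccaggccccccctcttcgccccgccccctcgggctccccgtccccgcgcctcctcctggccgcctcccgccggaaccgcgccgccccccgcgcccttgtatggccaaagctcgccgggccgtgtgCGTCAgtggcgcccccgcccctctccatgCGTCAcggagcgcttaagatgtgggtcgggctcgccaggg
Nr4a2 (chr2:57124004-57124253, minus strand): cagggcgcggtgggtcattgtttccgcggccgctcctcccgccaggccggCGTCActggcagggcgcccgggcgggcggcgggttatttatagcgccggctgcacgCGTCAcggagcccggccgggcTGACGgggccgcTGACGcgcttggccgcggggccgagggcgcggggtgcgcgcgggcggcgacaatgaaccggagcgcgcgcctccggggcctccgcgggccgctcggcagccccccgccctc
Nr4a3 (chr4:48045055-48045304, plus strand): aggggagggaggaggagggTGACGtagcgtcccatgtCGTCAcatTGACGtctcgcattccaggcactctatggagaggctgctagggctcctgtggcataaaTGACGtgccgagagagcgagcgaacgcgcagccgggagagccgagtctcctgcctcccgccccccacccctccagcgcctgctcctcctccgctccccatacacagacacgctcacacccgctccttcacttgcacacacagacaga
Fos (chr12:85473640-85473889, plus strand): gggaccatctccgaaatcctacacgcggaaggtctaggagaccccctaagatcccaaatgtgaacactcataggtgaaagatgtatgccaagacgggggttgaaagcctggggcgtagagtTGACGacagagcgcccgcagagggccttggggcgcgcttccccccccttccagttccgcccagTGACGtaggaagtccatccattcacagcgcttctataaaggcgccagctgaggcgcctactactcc
Junb (chr8:84978749-84978998, minus strand): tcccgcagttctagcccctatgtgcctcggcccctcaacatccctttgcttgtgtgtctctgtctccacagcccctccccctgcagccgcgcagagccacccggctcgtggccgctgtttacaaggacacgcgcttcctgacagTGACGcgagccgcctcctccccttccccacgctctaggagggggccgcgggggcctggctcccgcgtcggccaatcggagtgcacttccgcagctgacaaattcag

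The NR4A windows each held 4 TGACG matches on either strand, where 0.137% of all 32851 windows of that length held at least 4. In Nr4a1 they began 233, 213, 69 and 40 bases before the start. The Fos window held 2 and those of Junb and Fosb held 1 each, while Jun had 0; 17.8% of all windows held at least 1 and 3.9% at least 2. Egr2 has 5 annotated starts, and its windows, some of which overlap, held from 0 to 2. The CArG box, which SRF is known to bind, was matched in 4 of the 5 Egr2 windows. No other of the 8 genes had a match, and 1.47% of all windows did. Overlapping Egr2 windows shared 1 match, CCATATATGG, so the 4 windows do not hold 4 separate sites. Bases farther than 250 from the start were not read, so a gene without a match here may still have such a site. GCGNGGGCG, the EGR site, was matched once each in Nr4a1, Nr4a2 and Fosb, against 4.7% of windows. GGGCGG, a GC box of the kind that Sp and Krüppel-like factors are known to bind, was matched in 7 of the 8 genes, all but Junb, and in 32.7% of windows; in Nr4a1, Nr4a2 and Fosb 1 of these matches overlapped the GCGNGGGCG match. TGANTCA, the AP-1 site, was in none of the 8 and in 6.75% of windows. These matches describe letters in windows of fixed length, and no binding was measured.

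The filter on low values asked for 1 or more in at least 2 libraries and left 8 of the 10 genes to test. In the knockout 7 of these 8 were higher and 0 lower (limma, adjusted p below 0.05; also 0 lower at an unadjusted p below 0.05). Among all tested genes 27.7% were higher and 17.0% lower. Fos, Egr3 and Nr4a2 passed the filter only with the help of their knockout values (both wild-type values of Egr3 and Nr4a2 were below 1), so a low knockout value would have left them out, and the count cannot be read as if all 10 had been open to either result. Of the 5 tested genes with both wild-type values at 1 or more, 4 were higher. The median log2 fold change of the 8 was 1.12, beside 0.12 over all tested genes. Scaling the libraries by the median of ratios (RLE) moved the median of all tested genes by -0.10 and left all 7 calls in place.

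**Figure D1:**
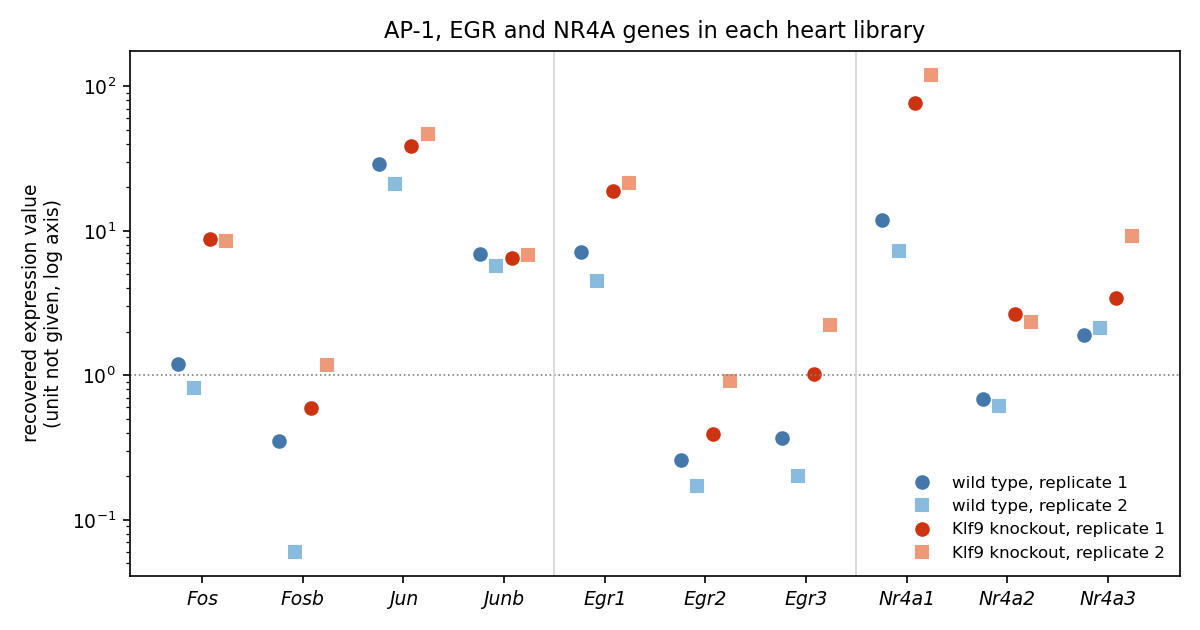
Recovered expression value (log axis, unit not given) of the 10 genes in each of the 4 libraries; blue marks are wild type, red marks Klf9 knockout, and the dotted line is the value of 1 used in the filter. Both red marks lie above both blue marks for every gene but Junb, where wild-type replicate 1 (6.95) is the highest of the 4.

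Among the AP-1 genes Fos changed most. Fos, the founding partner of JUN in AP-1, stood at 1.19 and 0.81 in wild type and at 8.82 and 8.48 in the knockout, an 8.65-fold ratio of means. The knockout libraries differed from each other by far less than from wild type, and the groups did not overlap. Its log2 fold change was 2.28 ± 0.18 (SE, n = 2 per group; limma adjusted p = 3.25e-05).

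Jun, which can pair with itself or with FOS, stood at 28.9 and 20.98 in wild type and at 38.7 and 46.8 in the knockout. The groups did not overlap, but the rise was small, 1.71-fold in the means, with a log2 fold change of 0.76 ± 0.21 (SE; limma adjusted p = 0.0183). The call was lost without knockout replicate 2 (0.63, adjusted p = 0.221) and without knockout replicate 1 (0.90, adjusted p = 0.0544). It was also lost with no filter on low values (adjusted p = 0.0533).

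Junb, a JUN relative that forms AP-1 of weaker activity at many sites, stood at 6.95 and 5.70 in wild type and at 6.51 and 6.79 in the knockout. Both knockout values lay between the wild-type ones, so that the groups overlapped completely. The log2 fold change was 0.07 with a 95% interval from -0.32 to 0.46 (limma adjusted p = 0.776), and its sign turned with RLE scaling (-0.033). Whether the change of Junb differs from those of Jun and Fos was not tested.

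Fosb, whose short splice form is known to build up with repeated stimulation, was low throughout, at 0.35 and 0.06 in wild type and at 0.59 and 1.18 in the knockout. It reached 1 in knockout replicate 2 alone and was not tested. The groups did not overlap, yet wild-type replicate 1 was 5.83 times replicate 2, a wider gap than between wild-type replicate 1 and either knockout library. With no filter its log2 fold change was 0.64 ± 0.20 (SE; limma adjusted p = 0.0664).

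Of the EGR genes, Egr1 and Egr3 rose and Egr2 was too low to test. Egr1, the EGR member induced by most growth signals, stood at 7.10 and 4.48 in wild type and at 18.9 and 21.6 in the knockout. The groups were well apart, with a ratio of means of 3.49 and a log2 fold change of 1.67 ± 0.22 (SE; limma adjusted p = 0.000440). This call held under each alternative run, with adjusted p up to 0.00892.

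Egr3, a close relative known from muscle spindles and lymphocytes, stood at 0.37 and 0.20 in wild type and at 1.02 and 2.22 in the knockout. Knockout replicate 2 was 2.18 times replicate 1, and both lay above wild type. The log2 fold change was 0.99 ± 0.22 (SE; limma adjusted p = 0.00626), on a scale that understates low values: the ratio of means was 5.68. Without knockout replicate 2 it was 0.66 (adjusted p = 0.00846).

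Egr2, known for its part in myelination by Schwann cells, stayed below 1 in every library, at 0.26 and 0.17 in wild type and at 0.39 and 0.91 in the knockout. The groups did not overlap but the order rests on small values, and Egr2 was not tested. With no filter its log2 fold change was 0.42 ± 0.16 (SE; limma adjusted p = 0.114).

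All 3 NR4A genes rose, and Nr4a1 had the largest fold of the 10. Nr4a1 (Nur77), a receptor induced by adrenergic signals in muscle, stood at 11.96 and 7.30 in wild type and at 77.1 and 120.4 in the knockout. The lower knockout value was above the higher wild-type value by a wide margin, and the ratio of means was 10.3. Its log2 fold change was 3.23 ± 0.28 (SE; limma adjusted p = 5.04e-05), and it was 2.91 to 3.55 with any library left out.

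Nr4a2 (Nurr1), best known from dopamine neurons, stood at 0.68 and 0.61 in wild type and at 2.66 and 2.35 in the knockout. Replicates lay close together in both groups, which did not overlap. The log2 fold change was 1.09 ± 0.15 (SE; limma adjusted p = 0.000675), and the ratio of means was 3.88.

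Nr4a3 (Nor1), which shares much of its DNA-binding domain with the other two, stood at 1.89 and 2.14 in wild type and at 3.41 and 9.14 in the knockout. The groups did not overlap, but knockout replicate 2 was 2.68 times replicate 1. The log2 fold change was 1.15 ± 0.33 (SE; limma adjusted p = 0.0207). It fell to 0.55 without knockout replicate 2 (adjusted p = 0.183). The call was also lost without wild-type replicate 1 (adjusted p = 0.412) or 2 (0.395), and with no filter (0.0893).

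**Figure D2:**
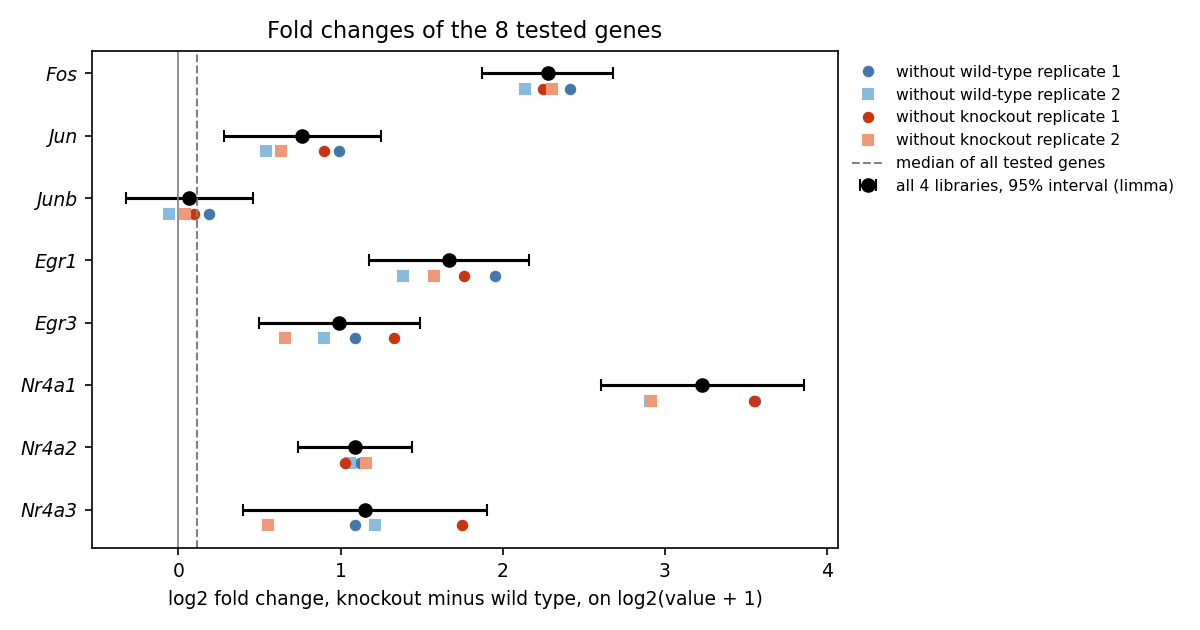
Log2 fold change (knockout minus wild type, on log2(value + 1)) of the 8 tested genes, with the 95% interval of limma in black and, below it, the value with each library left out. The intervals of 7 genes lie above 0, and that of Junb runs from -0.32 to 0.46; the point of Nr4a3 without knockout replicate 2 is at 0.55.

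By ratio of group means without a pseudocount, the order of change was Nr4a1 (10.3), Fos (8.65), Egr3 (5.68), Fosb (4.32), Nr4a2 (3.88), Egr1 (3.49), Nr4a3 (3.11), Egr2 (3.02), Jun (1.71) and Junb (1.05). On the tested scale the interval of Nr4a1 (2.60 to 3.86) overlapped that of Fos (1.87 to 2.68), and the intervals of Egr3 (0.50 to 1.49), Nr4a2 (0.74 to 1.44), Nr4a3 (0.40 to 1.90) and Jun (0.28 to 1.25) overlapped one another. Differences between neighbours in this order were not tested.

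The authors' deposited table compares every knockout library with every wild-type library, so that each library enters 2 of the 4 log2 ratios of a gene. In the authors' deposited table all 4 ratios were above 0 for 9 of the 10 genes. For Nr4a1 the authors' deposited table gave ratios from 2.69 to 4.04, and for Fos from 2.83 to 3.44. Nr4a2 had the narrowest spread of the genes that were higher, 1.79 to 2.12 in the authors' deposited table. Fosb had the widest, 0.75 to 4.30 in the authors' deposited table, with the low end from wild-type replicate 1 and knockout replicate 1. Junb ran from -0.09 to 0.25 in the authors' deposited table.

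The DEGseq test in the authors' deposited table also called these 9 genes higher at q below 0.05, where it called 41.3% of its genes higher. How DEGseq treats the spread between replicates was not checked. The Poisson p-values compare single libraries and hold no spread between replicates. For Junb the q in the authors' deposited table was 0.724 and for Egr2 it was 0.000901, the weakest of the 9. Egr2 also showed that ratios and p-values in the table do not always move together. Its ratio of 1.20 for knockout replicate 1 over wild-type replicate 2 carried a Poisson p of 0.962 in the authors' deposited table, while the smaller ratio of 0.58 over wild-type replicate 1 carried 0.0691.

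**Figure D3:**
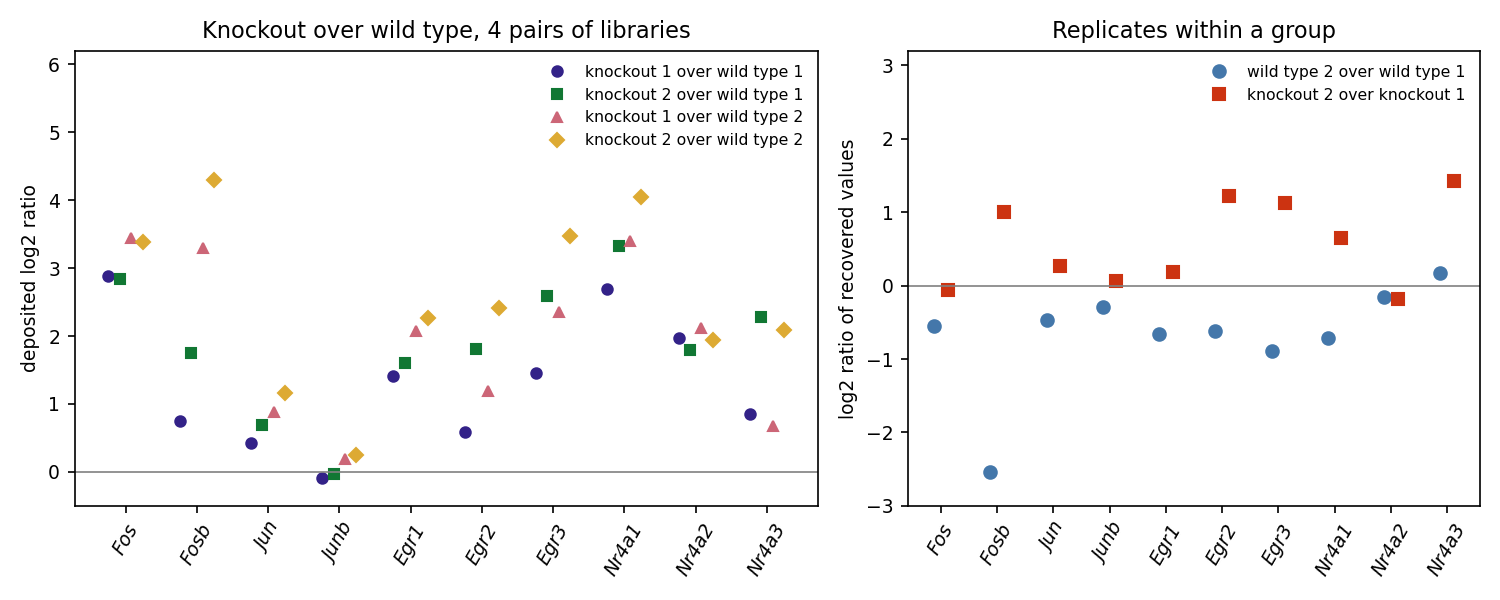
Left, the authors' deposited log2 ratios of each gene, 1 per pair of libraries; right, the log2 ratio of replicate 2 to replicate 1 within wild type (blue) and within the knockout (red), from recovered values. On the right most blue points lie below 0 (9 of 10) and most red points above it (8 of 10).

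Levels of the 10 genes differed between the replicates of a group. Wild-type replicate 1 was above replicate 2 for 9 of the 10 genes, all but Nr4a3, where 45.2% of all genes of the table were. Knockout replicate 2 was above replicate 1 for 8 of the 10, all but Fos and Nr4a2, where 51.5% of all genes were. The ratio of knockout replicate 2 to replicate 1 was 2.68 for Nr4a3, 2.33 for Egr2, 2.18 for Egr3, 2.0 for Fosb and 1.56 for Nr4a1, and 0.96 for Fos. Knockout replicate 2 is also the library without a Kdm5d signal. Without knockout replicate 2 the log2 fold changes of the 8 tested genes ran from 0.04 for Junb to 2.91 for Nr4a1. Without knockout replicate 1 they ran from 0.09 to 3.55 for the same genes. Leaving out either knockout library leaves no spread within that group.

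A list of other AP-1 subunits and related leucine zipper genes moved in both directions. It held Fosl1, Fosl2 and Jund, beside Atf3, Jdp2, BATF genes and the small MAF genes Maff, Mafg and Mafk. Of 11, 8 were tested, of which 3 were higher and 3 lower, with a median log2 fold change of -0.28. Fosl2 and Jund, the tested FOS and JUN genes of the list, were both higher. Mafg (-0.23) and Mafk (-0.33) did not pass, and Fosl1 was not tested. These are 37.5% in each direction, beside 27.7% higher and 17.0% lower of all tested genes. Jund, the JUN member with the steadiest expression in most tissues, was at 41.8 and 34.3 in wild type and at 90.6 and 110.9 in the knockout. Fosl2 (Fra-2) was at 7.35 and 5.03 against 16.6 and 18.9. Both were higher in each knockout library than in each wild-type library. The third gene that was higher, Atf3, named here because the count is small, was at 4.26 and 4.39 against 12.98 and 33.4, again with knockout replicate 2 on top. Batf2 (log2 fold change -0.94 ± 0.15) and Maff (-0.75 ± 0.18) fell, as did Jdp2 (-0.48 ± 0.17), a repressor of AP-1 (limma adjusted p up to 0.0495 for these 3). Without knockout replicate 1 there was 1 lower gene in this list.

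Among partners of EGR and NR4A proteins, 1 of 5 tested genes was higher and 1 lower (20.0% each, beside 27.7% and 17.0% of all tested genes). Nab2, a corepressor that EGR proteins induce, rose from 4.40 and 3.77 to 6.54 and 7.24 (log2 fold change 0.64 ± 0.17). Rxrg, a retinoid receptor of the family with which Nr4a1 and Nr4a2 form heterodimers, fell from 42.0 and 46.5 to 13.7 and 8.97. The call of Nab2 was lost without either knockout library in turn, where 0 genes of this list were higher. The lower genes numbered 2 when wild-type replicate 1 was left out.

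Other immediate early genes did not all follow. Of 35 tested, 13 rose and 7 fell, and the list had a median of 0.35. Sik1, a kinase induced by cyclic AMP, was at 12.2 and 7.96 in wild type and at 40.7 and 42.3 in the knockout, and Ier2 was at 6.34 and 5.88 against 17.5 and 21.95. Arc, a synaptic gene, was lower, at 1.79 in both wild-type libraries and at 0.26 and 0.32 in the knockout, and Gadd45a fell from 6.21 and 9.03 to 3.16 and 2.08. The higher genes made up 37.1% of those tested, beside 27.7% of all genes, and the lower ones 20.0%, beside 17.0%. Lower genes numbered 4 without either knockout library in turn.

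No upstream factor of the SRF or CREB lists was called lower with all 4 libraries. Of 7 tested SRF, TCF and MRTF genes 5 were higher and 0 lower (limma; the same numbers at an unadjusted p below 0.05), with Elk3, a ternary complex factor, at 18.1 and 15.7 against 35.0 and 38.3 and Mkl1 at 5.59 and 4.03 against 9.27 and 10.8. Of 9 genes of CREB, its coactivators and MEF2 factors 6 were higher and 0 lower (limma; the same numbers at an unadjusted p below 0.05), led by Crtc1 (log2 fold change 1.12 ± 0.20) and Crtc3 (1.04 ± 0.24). The higher genes made up 71.4% and 66.7% of these lists, beside 27.7% of all tested genes. Among all tested genes 17.0% were lower. In the former list RLE scaling, or leaving out either knockout library, gave 3 higher genes. In the latter 3 were higher and 1 lower after RLE scaling, 2 were higher without either knockout library in turn, and 1 was lower without wild-type replicate 1. Creb1 itself was at 4.61 and 4.66 against 5.77 and 5.28 and did not pass.

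In the MAP kinase cascade 4 of 18 genes were higher (22.2%) and 1 lower (5.56%), beside 27.7% and 17.0% of all tested genes. Map2k6 (2.18 and 1.98 against 6.44 and 7.07) and Mapk7 (4.05 and 3.64 against 10.3 and 10.4) were higher, and Map2k3 was lower (-0.73 ± 0.18). Of 13 tested feedback inhibitors, some of which the cascade is known to induce, 8 were higher (61.5%) and 1 lower (7.69%). These shares stand beside the same 27.7% and 17.0%. The other 4 did not pass, among them Dusp6, at 8.75 and 8.89 against 8.65 and 8.73. Dusp5, a nuclear phosphatase of ERK, was at 1.68 and 2.57 against 9.90 and 10.8, Dusp8 at 19.1 and 12.3 against 33.8 and 35.2, and Dusp7 fell from 20.7 and 23.4 to 9.83 and 8.83. Without either knockout library in turn, 4 feedback inhibitors were higher. The kinase list had 8 higher genes without wild-type replicate 1, 7 without the other one, and 2 without knockout replicate 2; 0 were lower without either knockout library and 2 after RLE scaling or without wild-type replicate 2.

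**Figure D4:**
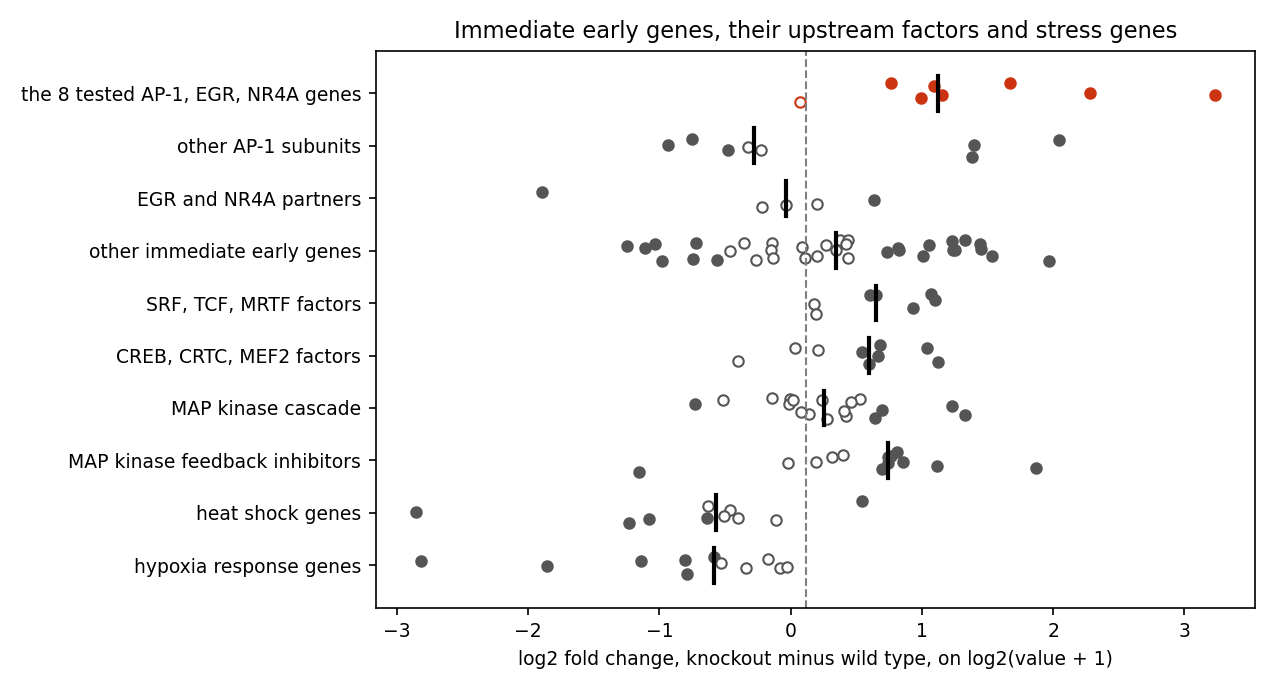
Log2 fold change (knockout minus wild type, on log2(value + 1)) of each tested gene in 10 lists; filled points passed the test, open points did not, black bars are list medians and the dashed line is the median of all tested genes (0.12). The AP-1, EGR and NR4A genes (red) have a median of 1.12, other immediate early genes one of 0.35, and heat shock and hypoxia response genes medians of -0.57 and -0.59.

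Handling, stress and hypoxia can raise immediate early genes, so genes of those responses were read beside them. Of 10 tested heat shock genes 1 was higher (Dnajb1, 6.38 and 5.31 against 8.16 and 9.85) and 4 were lower, among them Hsph1 (47.2 and 52.2 against 5.43 and 6.59) and Hspe1 (-1.23 ± 0.30). Hspa1b, an inducible heat shock gene, was at 1.54 and 3.69 against 1.25 and 1.80. Its groups overlapped and it did not pass (log2 fold change -0.46, limma adjusted p = 0.201). Of 11 tested hypoxia response genes 0 were higher and 6 lower (limma; the same numbers at an unadjusted p below 0.05), with Bnip3 at 156 and 196 against 24.9 and 23.1 and Egln3 at 82.2 and 59.5 against 17.8 and 19.5. Without knockout replicate 1 or 2 in turn, 2 and 3 heat shock genes and 3 hypoxia genes were lower, and without wild-type replicate 1 there were 8 of each. After RLE scaling, or without either knockout library, the call of Dnajb1 was lost. With all libraries the lower genes made up 40.0% of the heat shock list and 54.5% of the hypoxia list, beside 17.0% of all tested genes, of which 27.7% were higher. The part of tissue handling in the values of the 10 genes was not tested.

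Cell cycle genes were higher, while genes of the immature or stressed heart changed in both directions. All 10 cell cycle genes tested were higher, beside 27.7% of all tested genes. Their summed value was 27.3 to 36.1 in wild type and 168 to 219.6 in the knockout. Ccnb1, Cdk1, Mcm5 and Aurkb had both wild-type values below 1 and passed the filter only through the knockout. Birc5, at 0.59 in wild-type replicate 2, needed a knockout value too. The count of 10 thus cannot be read as if each gene had been open to either result. Mki67 was at 1.03 and 1.16 against 17.0 and 20.8. Of 7 tested genes of the fetal heart list 4 were higher (57.1%) and 3 lower (42.9%), beside 27.7% and 17.0% of all tested genes; without knockout replicate 1 there was 1 lower. Tnni1, the troponin I of the heart before birth, was at 0.16 and 0.01 against 656 and 994, although all mice were labelled 8 weeks old. Igf2, a fetal growth factor, was at 8.87 and 4.65 against 311 and 399. Tnni1 and Dlk1 of this list passed the filter only through their knockout values. Acta1, the skeletal actin that the fetal and the overloaded heart are known to express, was lower, at 814 and 313 against 45.2 and 70.9; the change was -3.13 ± 0.41 on the log2 scale (SE; limma adjusted p = 0.000459). Nppa and Nppb, the natriuretic peptide genes, were lower too, Nppa at 232 and 195 against 93.8 and 134 and Nppb at 432 and 399 against 216 and 306 (limma adjusted p = 0.0138 and 0.0438). Whether stage or proliferation has a part in the higher values of Fos, Egr1 or Nr4a1 was not tested.

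Several markers of other heart cells differed between the groups too. The summed value of 7 fibroblast markers was 420 to 568 in wild type and 1049 to 1115 in the knockout, with Col1a1 at 67.1 and 32.0 against 342 and 422 but Dcn lower (221 and 429 against 145 and 131). The call of Dcn was lost without knockout replicate 2. The sum of 7 epicardial markers was 6.92 to 9.24 against 26.7 to 28.8. The sum of 7 smooth muscle and pericyte markers was 261 to 320 against 416 to 510, but it rested on Acta2, the smooth muscle actin (89.7 and 74.6 against 255 and 358). Without Acta2 the sum of the other 6 was 172 to 245 against 152 to 161, with Rgs5, a pericyte gene, lower (135 and 216 against 93.3 and 74.3). Of the 7, 5 were higher (71.4%) and 1 lower (14.3%), beside 27.7% and 17.0% of all tested genes. After RLE scaling 3 were higher, and calls in both directions were also lost without knockout replicate 2. The sum of 7 endothelial markers was 373 to 397 against 477 to 484. Of these, 5 did not pass and 2 were higher, Cdh5 (103 and 97.0 against 177 and 185) and Tie1. The 2 made up 28.6% of the list, near the 27.7% of all tested genes that were higher. Without Cdh5 the sum was 276 to 293 against 299 to 300.2, and without either knockout library in turn 0 endothelial markers were higher. Pecam1 was at 84.1 and 92.1 against 97.5 and 93.8, while Emcn (32.96 and 53.9 against 26.5 and 28.9) and Vwf (23.8 and 10.04 against 9.85 and 9.42) had lower means in the knockout and did not pass. The sum of 9 macrophage markers went the other way, 244 to 398 against 72.5 to 73.4. Upk1b of the epicardial list was at 0.01 in at least 1 library, and no fibroblast, endothelial or macrophage marker was. In whole hearts a change in the number of such cells and a change in RNA per cell cannot be told apart, and the part of cell makeup in the values of the 10 genes was not tested.

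Markers of blood cells changed in both directions. The summed value of 7 red cell genes was 10830 to 11077 in wild type and 12516 to 18948 in the knockout. Of these, 1 was higher (14.3%, beside 27.7% of all tested genes). That of 6 neutrophil markers was 19.7 to 20.96 against 4.78 to 5.06, with Ly6g and Retnlg at 0.01 in at least 1 library. Of 5 tested neutrophil markers 3 were lower, S100a8 (3.57 and 4.04 against 0.28 and 0.18), S100a9 (10.4 and 12.02 against 0.68 and 1.31) and Retnlg, and 1 was higher, Cxcr2, whose call was lost without either knockout library in turn. T cell markers, of which 6 were read, reached at most 0.56 in any library, and the 5 B cell markers 1.43.

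Among the 12127 other tested genes, the 5 whose profile over the 4 libraries lay nearest to the median profile of the 8 tested members were Ppp1r14a, Eva1b, Haghl, Prr5 and Ticrr. Nearness was the Euclidean distance between centred log2(value + 1) profiles, which was 0.103 for Ppp1r14a and 0.110 for Ticrr. Ppp1r14a, an inhibitor of myosin phosphatase in smooth muscle, was at 4.97 and 4.92 against 11.1 and 14.9. The members themselves lay farther from their own median, from 0.304 for Egr3 to 2.06 for Nr4a1. The 5 genes were picked for nearness and the members were not, so the smaller distances follow from the choice.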

How the data were processed

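The table that the authors deposited lists 17485 genes with log2 ratios of knockout over wild type for 4 pairs of libraries and for the groups, with p-values from a Poisson model and q-values from DEGseq, per the file headers. One false discovery rate column of the deposited table passes 1, was treated as a score and was not used. Neither the aligner, the quantification tool, the build nor the depth is given in the sources used here.

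Values per library were recovered from the 4 ratios, which were additive to within 9.9e-14 in the 16152 genes that had all 4. Continued fractions gave the smallest 4 whole numbers with these ratios, read in steps of 0.01; 1333 genes with a missing ratio were read as having a pair at that step. Every gene could be resolved. A factor common to all 4 values is lost, which by chance concerns 7.61% of genes and makes the level too low but leaves ratios as they are. The step of 0.01 is an assumption. List sums and the choice of the highest list members weigh levels between genes and carry these limits.

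The test was limma 3.58.1 in R 4.3.3 (empirical Bayes, trend and robust) on log2(value + 1), with no term but group. It was run on the 12135 genes that reached 1 in 2 or more libraries, and p was adjusted over all of them by Benjamini-Hochberg, with a threshold of 0.05. This scale understates changes of low genes. Scripts were tested on simulated data. Python 3.11.15, numpy 2.4.6, pandas 2.3.3 and matplotlib 3.10.9 were used. The members and gene lists were chosen with earlier results of these data known. All 10 members are named, with up to 2 genes per direction of lowest p from each other list and the 5 nearest profiles. The 2 highest members are named for the heart muscle, fibroblast, smooth muscle, endothelial and neutrophil lists. Those of the epicardial, macrophage, red cell, T cell and B cell lists are not. Hspa1b, Creb1, Atf3, Jdp2, Fosl1, Mafg, Mafk, Nppb, Tie1, Emcn, Vwf, Cxcr2, Retnlg, Ly6g, Upk1b, Kdm5d and Esr1 were named after their values were seen. So were Ccnb1, Cdk1, Mcm5, Aurkb, Birc5, Dlk1 and Dusp6.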

Additional observations from a re-analysis of the deposited data

How the results depend on the processing

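Fos, Egr1 and Nr4a1 were called higher under all 11 alternatives run, and Egr3 and Nr4a2 under all in which they were tested; a minimum of 5 left them out. Of 85 values of single members under alternatives, 76 kept direction and side of the threshold, and 7 lost the call, all for Jun or Nr4a3 and given above. The sign of Junb turned with RLE scaling (-0.033) and without wild-type replicate 2 (-0.056; up to 0.191 with another library left out); the cause was not tested. The count of members that were higher was 7 and became 4 of 5 tested with a minimum of 5, where fewer genes were tested, and 5 of 10 with no filter. It was 5 to 6 with a library left out, and 0 members were lower in each case. With the replicate number as a block (replicate block), though deviations of same-numbered libraries correlated at only -0.035 across genes and the numbers are not known to pair them, 7 members were higher, and 3514 of all genes were higher and 2275 lower. Across all genes the higher count ran from 1859 to 4327 and the lower count from 1100 to 3261 with a library left out. List counts without each library and after RLE scaling, and marker sums without 1 gene, were chosen after seeing the data. Values of Egr2 and Fosb lay mostly below the filter value of 1, down to 0.06 for Fosb, and with 2 libraries per group precision is low.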
